A study of Mus musculus with 3 samples.

Results

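The myeloid colony-stimulating factors are secreted proteins that keep macrophages, granulocytes and dendritic cells alive and dividing, and each acts through its own receptor. The genes described here are 4 ligands, *Csf1*, *Csf2*, *Csf3* and *Flt3l*, and 5 receptor genes, *Csf1r*, *Csf2ra*, *Csf2rb*, *Csf3r* and *Flt3*. They were chosen by symbol for their function, and they are 9 of the 31053 genes counted. Each was measured in 3 classes of cells, which were stromal cells, macrophages and T/NK cells of day 5 tissue masses. The masses grew under the skin of CD-1 female mice aged 6 to 8 weeks at sites of injected Matrigel, a basement membrane gel. In the Matrigel-only group the gel held no recombinant human bone morphogenetic protein 2 (rhBMP2), a growth factor used to start ectopic bone through a cartilage stage, and no oral agent was given. In the Vehicle group the gel held rhBMP2 and the mice were given corn oil with dimethyl sulfoxide (DMSO) by mouth. In the Palo group the gel held rhBMP2 and the mice were given 4 mg/kg of palovarotene, a retinoid agonist selective for retinoic acid receptor γ, daily. All mice were of the outbred CD-1 stock and carried no transgene, and the masses of a group were pooled into 1 library. Vehicle therefore differed from Matrigel-only in both rhBMP2 and the oral vehicle, whose parts cannot be told apart.

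CSF1, also called M-CSF, and interleukin 34 are the ligands of CSF1R, the tyrosine kinase receptor on which most tissue macrophages depend. CSF2, or GM-CSF, binds the alpha chain CSF2RA and signals through the common beta chain CSF2RB, which interleukin 3 and interleukin 5 also use, while CSF3, or G-CSF, binds CSF3R on neutrophils and their precursors. FLT3L acts on FLT3, which in peripheral tissue marks dendritic cells. In connective tissue, fibroblasts are a known source of CSF1, and CSF1 also drives the formation of osteoclasts.

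The 3 libraries held 6065 to 9249 barcodes and 44252421 to 46901673 unique molecular identifiers (UMIs). Cells with 200 to 6000 genes and at most 5% mitochondrial UMIs were kept, and 8728 Matrigel-only, 5478 Vehicle and 7297 Palo cells passed. A cell was stromal when *Col1a1*, *Col1a2*, *Col3a1*, *Dcn* and *Lum* together made up at least 1% of its UMIs, which gave 2085, 1373 and 1184 cells. A cell below that limit with *C1qa* or *Lyz2* was a macrophage, which gave 6445, 3566 and 5980 cells. A cell with *Cd3e* or *Nkg7* was a T/NK cell, which gave 71, 285 and 62 cells, and since this rule does not bar the others, 46, 199 and 37 of them were neither stromal cells nor macrophages and are called T/NK cells alone. In the stromal class, 14 of 14 stromal markers were found in at least 10% of cells in every library. They summed to 63650 to 98684 counts per 1000000 UMIs (CPM), against 430 to 750 CPM in macrophages. The macrophages held 12 of 12 macrophage markers at 20134 to 25755 CPM, against 372 to 993 CPM in stromal cells. The T/NK cells held 15 or 16 of 16 T/NK markers at 2745 to 6832 CPM, but also 16505 to 52906 CPM of stromal markers. Each list includes the genes of its class's rule, so these sums were in part set by the rule. The 5 stromal rule genes alone made up 7.52%, 5.33% and 8.51% of stromal UMIs, and the limit of 1% keeps them low in macrophages. The libraries shared 11 to 21 barcodes in pairs. With 1 library per condition there is no replicate and no test was run: a level is the CPM of a gene over the summed UMIs of the class's cells, and all 95% intervals cover counting error only. The deeper a cell, the more genes it shows, so shares of cells with a UMI were computed after every cell was thinned to 700 UMIs.

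*Csf1* and its receptor gene *Csf1r* lay in different classes of cells, while *Flt3l* was spread over all classes. *Csf1* and *Il34* UMIs came mostly from stromal cells, and *Csf1r*, *Csf2ra*, *Csf2rb* and *Csf3r* UMIs mostly from macrophages. *Flt3* UMIs came mostly from the few dendritic-like cells, and *Csf2* and *Csf3* were scarce everywhere. Between the libraries the stromal ligands *Csf1* and *Il34* were lower in Vehicle than in both others. In macrophages, *Csf2ra* was highest in Palo and *Csf3r* highest in Vehicle.

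**Figure D1:**
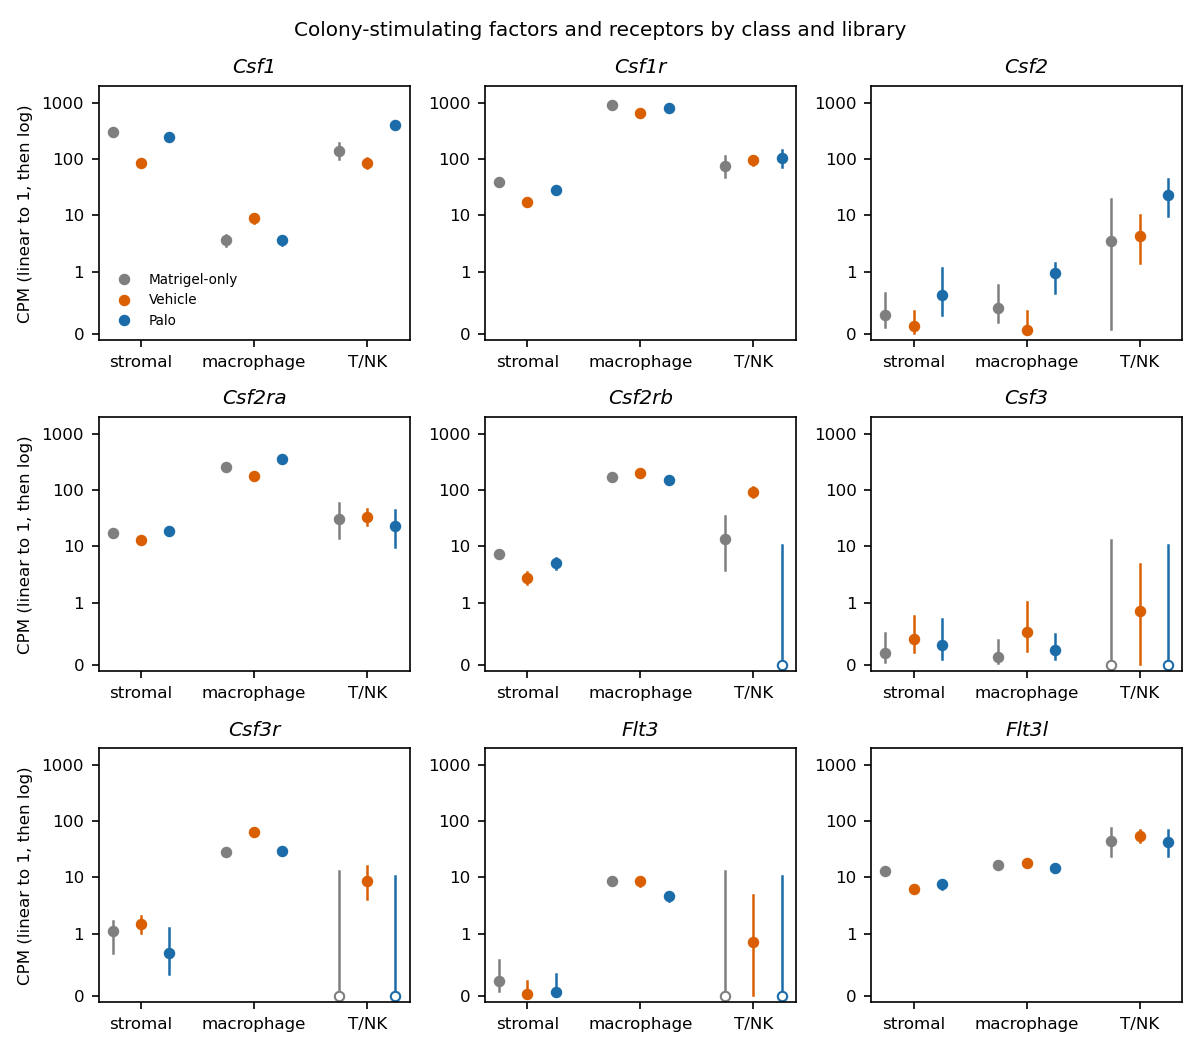
Levels of the 9 genes in stromal cells, macrophages and T/NK cells of the 3 libraries, in CPM on a scale that is linear to 1 CPM and logarithmic above it. Points are 1 library each, bars are exact Poisson 95% intervals and open points had 0 UMIs. *Csf1* stands at 307, 85.2 and 253 CPM in stromal cells and at 142, 85.8 and 403 CPM in T/NK cells by the rule. In the latter, 74 of the 142 Palo UMIs came from 1 cell. *Csf1r* stands highest in macrophages, at 925, 665 and 823 CPM.

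*Csf1* was a stromal transcript. The gene lies on the minus strand of chromosome 3 (mm10, chr3:107741048-107760469). The 250 bases before its RefSeq start (GRCm38.p6, chr3:107760470-107760719, minus strand) are shown because *Csf1* carries the largest ratio between libraries among the members with a mean of at least 5 CPM in stromal cells. They held 0 matches on either strand to the 3 motifs searched, GAGGAA (the core of the purine box bound by PU.1 and other ETS factors), ACGTG (the hypoxia response core) and AGGTCA (the half-site of retinoid receptors), and 56.4% of the bases were G or C.
Csf1: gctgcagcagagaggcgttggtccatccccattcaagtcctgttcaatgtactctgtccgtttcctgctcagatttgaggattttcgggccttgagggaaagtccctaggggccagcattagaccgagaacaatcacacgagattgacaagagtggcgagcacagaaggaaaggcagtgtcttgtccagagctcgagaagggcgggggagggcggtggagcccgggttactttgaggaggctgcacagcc
Over all 32851 promoters of this length, 23.3% held GAGGAA, 16.6% ACGTG and 14.0% AGGTCA. No match says only that these letters are not in this window.

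In stromal cells, *Csf1* stood at 307 CPM (95% interval 299 to 315, 6151 UMIs) in Matrigel-only, at 85.2 CPM (81.6 to 89.1, 2011 UMIs) in Vehicle and at 253 CPM (245 to 261, 4003 UMIs) in Palo. The Vehicle level was 3.60-fold lower than in Matrigel-only, a log2 ratio of -1.85 (-1.92 to -1.77), and the Palo level was 2.97-fold higher than in Vehicle, a log2 ratio of 1.57 (1.49 to 1.65). Palo and Matrigel-only lay closer, with a log2 ratio of -0.28 (-0.34 to -0.22). After thinning, a *Csf1* UMI was found in 18.7%, 5.71% and 15.2% of stromal cells, which is 13.0 percentage points fewer in Vehicle than in Matrigel-only (10.9 to 15.1). Vehicle stromal cells were the deepest, with a median of 17114 UMIs against 9082 and 12955, and still showed *Csf1* in the fewest cells without thinning, 41.9% against 77.2% and 76.0%.

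The Vehicle stroma was not uniform. Stromal cells were split, after their values were seen, by *Sox9*, the regulator that begins the chondrocyte programme, and by *Acan* and *Col2a1*, which encode aggrecan and type II collagen of cartilage matrix. Among cells with none of the 3 genes, *Csf1* stood at 262 CPM in Matrigel-only (1590 cells), 225 CPM in Vehicle (183 cells) and 221 CPM in Palo (775 cells), and the Vehicle interval of 206 to 246 CPM held the Palo level. Among cells with *Sox9* and neither matrix gene, the levels were 418, 131 and 304 CPM in 493, 319 and 405 cells. In these cells the Vehicle level was below both others, so the difference between libraries was not limited to cells with detected matrix genes. The split used detection without thinning, so the share of cells with a missed gene can differ between libraries. Median depths were 8574, 12489 and 12099 UMIs in cells with none of the 3 genes. They were 10605, 17886 and 14218 UMIs in cells with *Sox9* alone. Vehicle held 372 cells with *Acan* and no *Col2a1*, where *Csf1* stood at 56.1 CPM, and 407 cells with both, where it stood at 18.3 CPM (15.3 to 21.6, 134 UMIs). Matrigel-only and Palo together held no cell with both genes, so that comparison exists within Vehicle alone. In the 92 Vehicle cells with *Col2a1* and no *Acan*, the level was 149 CPM (131 to 168). In another setting, chosen after the data were seen, the cells with both matrix genes were left out. The stroma with *Pi16* and no matrix gene and the remaining stroma were given the same weights in each library. The log2 ratio then became -1.10 for Vehicle over Matrigel-only and 0.86 for Palo over Vehicle, the second inside 2-fold.

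**Figure D2:**
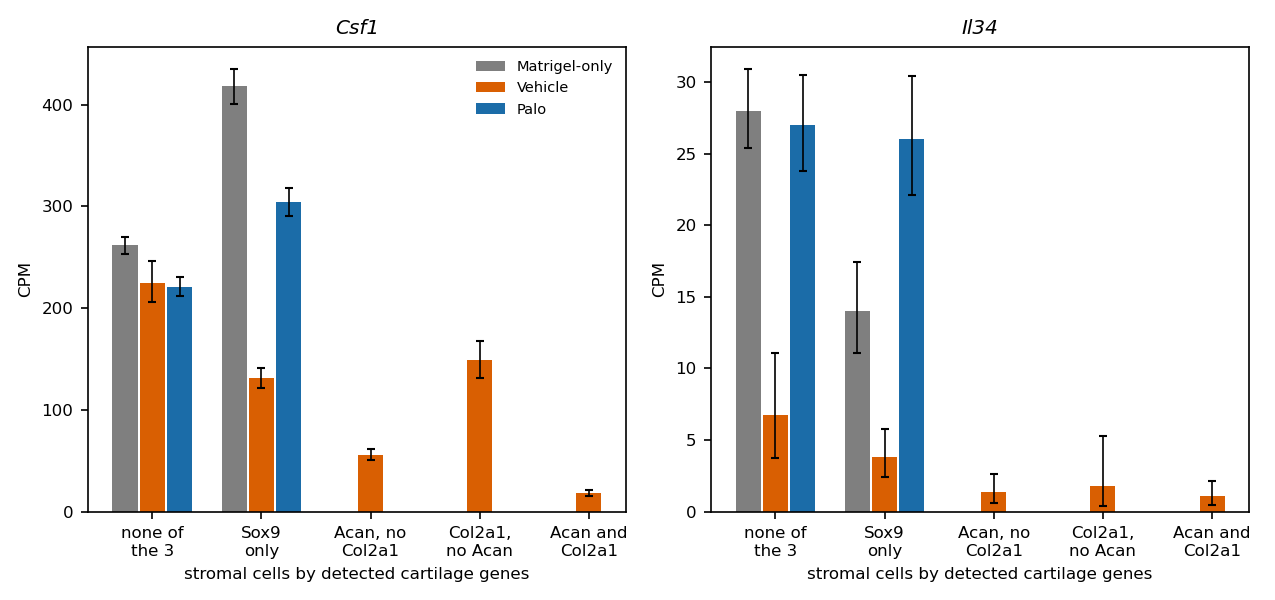
*Csf1* and *Il34* in stromal cells split by the detection of *Sox9*, *Acan* and *Col2a1*, in CPM, with exact Poisson 95% intervals. Groups with at least 20 cells are drawn, and within Vehicle *Csf1* runs from 225 CPM in cells with none of the 3 genes to 18.3 CPM in cells with both matrix genes.

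Among stromal cells with *Pi16*, a marker of a fibroblast population found in many tissues, and with neither matrix gene, *Csf1* stood at 323, 235 and 273 CPM. In the remaining stroma outside the cells with both matrix genes it stood at 291, 103 and 246 CPM. The limit of 1% that defines stroma was crossed by few cells: the cells at 0.5 to 1%, 56, 52 and 10 of them, had *Csf1* at 70.2, 38.0 and 481 CPM, and the cells at 1 to 2%, 38, 99 and 8 of them, at 352, 112 and 182 CPM. The *Pi16* cells were 1.11-fold, 2.29-fold and 1.11-fold above the remaining stroma in the same library. Cells with a matrix gene were barred from the *Pi16* group, but the remaining stroma kept those with 1. In Vehicle these were 372 cells with *Acan* and 92 with *Col2a1*, so the 2.29-fold is not separate from the split by matrix genes.

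Stromal cells held 98.1%, 86.8% and 97.1% of all *Csf1* UMIs of the Matrigel-only, Vehicle and Palo libraries. With a stromal limit of 2% these shares were 97.0%, 78.7% and 96.7%. Of the other Vehicle UMIs at the limit of 1%, 135 were in the macrophage class. Further ones were in cell types that were fewer in the other libraries. Vehicle basophil-like cells, named from markers such as *Mcpt8* and *Cd200r3*, held 82 *Csf1* UMIs in 100 cells, a level of 441 CPM. Vehicle neutrophil-like cells, named from *S100a8* and its like, held 25 UMIs in 61 shallow cells, a level of 560 CPM (363 to 827). Vehicle T cells held 42 UMIs in 12 of 102 cells, a level of 126 CPM, while Matrigel-only had 14 and Palo 9 such cells. Macrophages stood at 3.65 CPM in Matrigel-only, 8.84 CPM in Vehicle and 3.60 CPM in Palo, on 80, 135 and 103 UMIs, which gave log2 ratios of 1.27 (0.86 to 1.69) for Vehicle over Matrigel-only and -1.29 (-1.68 to -0.91) for Palo over Vehicle. Without cells that bore markers of neutrophils, basophils, dendritic cells, B cells or T/NK cells, the macrophage levels were 3.75, 7.15 and 3.58 CPM. In each marked macrophage group described below, the interval of *Csf1* for Vehicle over Matrigel-only held 0. It left out 0 only in macrophages of no marked group. Summed endothelial and pericyte markers in the macrophage class were 8.63, 64.8 and 6.19 CPM, and their part in the Vehicle level was not tested. Per 1000 UMIs of the 5 stromal genes, macrophages held 7.20, 15.2 and 10.3 *Csf1* UMIs and stromal cells 4.08, 1.60 and 2.97, which is a higher ratio in macrophages in every library, where the limit on stromal genes also lowers the reference. In T/NK cells by the rule the levels were 142, 85.8 and 403 CPM, but 74 of the 142 Palo UMIs came from 1 cell. T/NK cells alone stood at 13.6 CPM on 1 UMI, 138 CPM on 66 UMIs and 24.3 CPM on 2 UMIs, and without the basophil-like cells among them the Vehicle level was 99.2 CPM on 44 UMIs.

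*Il34*, taken from the pathway list as the other ligand of CSF1R, was also lowest in Vehicle in stromal cells. Its stromal level was 23.9 CPM (21.8 to 26.2, 480 UMIs) in Matrigel-only, 2.42 CPM (1.83 to 3.13, 57 UMIs) in Vehicle and 26.6 CPM (24.1 to 29.3, 421 UMIs) in Palo. This was 9.91-fold lower in Vehicle than in Matrigel-only and 11.0-fold higher in Palo than in Vehicle. Over the whole stromal class Palo and Matrigel-only could not be separated, with a log2 ratio of 0.15 (-0.04 to 0.34). Within its groups Palo was higher, at 0.44 (0.19 to 0.70) in the *Pi16* stroma and 0.60 (0.27 to 0.92) in the remaining stroma. Unlike *Csf1*, *Il34* was also low in the Vehicle cells with none of the cartilage genes, at 6.72 CPM (3.76 to 11.1, 15 UMIs) against 28.0 and 27.0 CPM. In cells with *Sox9* and neither matrix gene the levels were 14.0, 3.81 and 26.0 CPM. Macrophages held 6, 3 and 10 UMIs.

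*Flt3l*, the ligand of FLT3 and a growth factor of dendritic cells, was spread over all classes. The gene is on the minus strand of chromosome 7 (chr7:45129788-45136432). Its stromal level was 12.9 CPM (11.4 to 14.6) in Matrigel-only, 6.15 CPM (5.19 to 7.23) in Vehicle and 7.58 CPM (6.28 to 9.06) in Palo. Matrigel-only was above both, with a log2 ratio of -1.07 (-1.38 to -0.77) for Vehicle and -0.77 (-1.09 to -0.45) for Palo, while Palo over Vehicle had an interval of -0.06 to 0.66. In macrophages the levels were 16.9, 18.0 and 14.8 CPM, with Vehicle over Matrigel-only at 0.09 (-0.14 to 0.32) and Palo over Vehicle at -0.28 (-0.50 to -0.06). T/NK cells alone had the highest level in each library, 149 CPM (74.5 to 267), 107 CPM (79.4 to 140) and 146 CPM (75.3 to 255), with overlapping intervals. Macrophages, being many, still held 56.8%, 53.2% and 74.6% of its UMIs, and stromal cells 39.7%, 29.4% and 21.3%.

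*Csf2*, which encodes GM-CSF, was detected in few cells. The gene lies on the minus strand of chromosome 11 (chr11:54247271-54249667). Matrigel-only held 38 UMIs in 25 cells, Vehicle 28 UMIs in 14 cells and Palo 77 UMIs in 25 cells. Cells in none of the 3 classes held 23, 19 and 31 of these UMIs. Those cells were divided, after their values were seen, by *Gata3*, a transcription factor of T helper 2 cells and innate lymphoid cells, or *Il1rl1*, which encodes the receptor of interleukin 33. Among cells with *Gata3* or *Il1rl1*, *Csf2* was found in 14 of 76 Matrigel-only cells (18.4%, exact interval 10.5 to 29.0), 5 of 45 Vehicle cells (11.1%, 3.71 to 24.1) and 10 of 33 Palo cells (30.3%, 15.6 to 48.7). Among cells of no class without either gene, it was found in 1 of 76, 4 of 295 and 0 of 63. The intervals of the shares with *Gata3* or *Il1rl1* overlapped between libraries, and their differences were not tested. These cells were not alike in the 3 libraries. *Mcpt8*, a basophil marker, was found in 9 of the 45 Vehicle cells and in 0 of the Matrigel-only and Palo cells. As levels, *Csf2* in cells of no class and no marked type stood at 89.6 CPM (55.5 to 137), 17.9 CPM (8.56 to 32.8) and 316 CPM (215 to 449), on 21, 10 and 31 UMIs in 14, 3 and 10 cells. The log2 ratios were -2.33 (-3.58 to -1.18) for Vehicle over Matrigel-only and 4.15 (3.08 to 5.34) for Palo over Vehicle, with intervals that take UMIs of 1 cell as independent. Cells with *Gata3* or *Il1rl1* were 76 of 152, 45 of 340 and 33 of 96 cells of no class, and their part in these ratios was not tested. In Vehicle, 10 of the 28 UMIs were in basophil-like cells and 5 in T cells. The macrophage class held 9, 1 and 28 UMIs, with a log2 ratio of Palo over Vehicle of 3.90 (1.31 to 9.26), and 14 of the Palo UMIs were in 1 cell. The T/NK cells alone held 0, 5 and 8, the last in 3 of 37 cells, with 3.22 (1.42 to 5.17) for Palo over Vehicle. Of these, 6 of the 8 Palo UMIs and 3 of the 5 Vehicle UMIs were in 1 cell each, which that interval takes as independent. By cells, without thinning, the shares were 8.11% (1.70 to 21.9) in Palo and 1.51% (0.312 to 4.34) in Vehicle, with overlapping intervals. *Rora*, a transcription factor of innate lymphoid cells, was found in 19, 5 and 22 of the 25, 14 and 25 cells with *Csf2* of all classes. The same cells also showed *Lyz2* in 7, 1 and 12 and *Col1a1* in 9, 5 and 9. *Areg* was found in 3, 3 and 4 of them and *Il13* in 0, 4 and 2. Of the cells of no class with *Gata3* or *Il1rl1*, with or without *Csf2*, *Rora* was found in 53 of 76, 17 of 45 and 19 of 33.

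**Figure D3:**
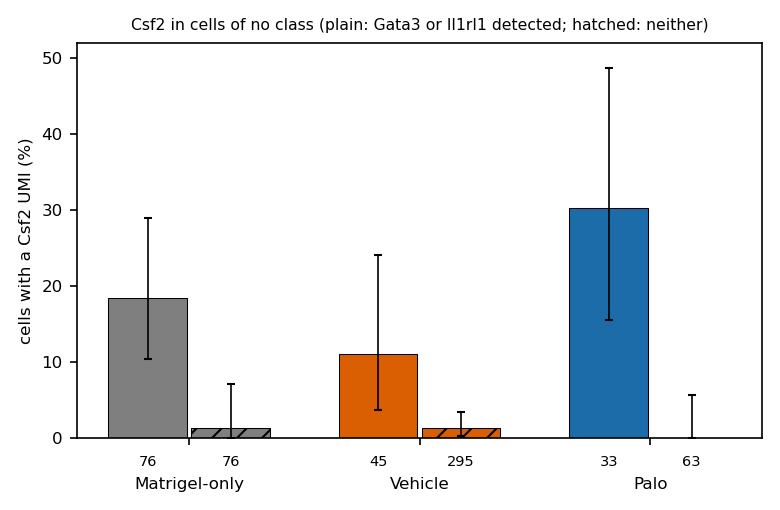
Share of cells with a *Csf2* UMI among cells in none of the 3 classes, split by *Gata3* or *Il1rl1*, in percent, with exact binomial 95% intervals and the number of cells under each bar. The cells with either gene reach 18.4%, 11.1% and 30.3%, and the cells without either stay at or under 1.36%. In Vehicle, 9 of the 45 cells with either gene also held *Mcpt8*, a basophil marker, against 0 in Matrigel-only and Palo.

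*Csf3*, which encodes G-CSF, was near the limit of detection. The gene is on the plus strand of chromosome 11 (chr11:98701263-98703629). The libraries held 7, 18 and 12 UMIs, with at most 3 in a cell. Stromal cells had 4, 10 and 5 of them and macrophages 3, 8 and 7. The stromal log2 ratio of Vehicle over Matrigel-only was 1.09 with an interval of -0.71 to 3.21, and no difference was detectable at this depth. T/NK cells held 0, 1 and 0 UMIs, and a count of 0 among 71 and 62 cells allows, as 3 counts of the total, a share of up to 4.23% and 4.84% of cells with a UMI (exact binomial upper limits 5.06% and 5.78%).

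*Csf1r*, the receptor of CSF1 and interleukin 34, was found in most macrophages. It lies on the plus strand of chromosome 18 (chr18:61100598-61132149). Its macrophage level was 925 CPM (912 to 938) in Matrigel-only, 665 CPM (652 to 678) in Vehicle and 823 CPM (812 to 833) in Palo. Vehicle over Matrigel-only had a log2 ratio of -0.48 (-0.51 to -0.44) and Palo over Vehicle 0.31 (0.27 to 0.34). After thinning, 45.3%, 36.2% and 43.2% of macrophages had a UMI. Macrophages held 96.1%, 94.1% and 97.9% of its UMIs. The order of the libraries by CPM was the same as for stromal *Csf1*, over a smaller range. For Palo over Matrigel-only the *Csf1r* ratio was -0.17 (-0.20 to -0.14), near the median of all genes in macrophages, -0.15.

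Within macrophages the order depended on the group of cells, each named by its markers. Macrophages marked by *Ms4a7* and *Stab1* had *Csf1r* at 1225, 770 and 1121 CPM. Those marked by *Hal* and *Retnla* had 834, 588 and 688 CPM. Those marked by *Mmp12* and *Itgax* had 517, 589 and 540 CPM, so Vehicle was here above Matrigel-only, with a log2 ratio of 0.19. The *Ms4a7*/*Stab1* cells exceeded the *Mmp12*/*Itgax* cells 2.37-fold in Matrigel-only, 1.31-fold in Vehicle and 2.08-fold in Palo.

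In stromal cells *Csf1r* stood at 39.5, 17.2 and 28.9 CPM, and 2.30%, 1.16% and 1.81% of thinned cells had a UMI, at median depths of 9082, 17114 and 12955 UMIs against 3000, 3498 and 4219 in macrophages. Per 1000 UMIs of the macrophage genes *C1qa*, *C1qb*, *C1qc* and *Lyz2*, stromal cells held 52.5, 76.8 and 44.1 *Csf1r* UMIs and macrophages 48.6, 46.3 and 38.4. The intervals of the stromal and macrophage ratios met in Matrigel-only (48.9 to 56.3 and 47.9 to 49.2) and lay apart in Vehicle (69.5 to 84.7 and 45.4 to 47.2) and in Palo (40.1 to 48.3 and 37.9 to 38.9). The Scrublet score marked 171, 63 and 69 stromal cells as doublets, which were kept. With all marked doublets left out, macrophages held 98.4%, 95.5% and 99.0% of the *Csf1r* UMIs. The part of doublets in the stromal level was not tested. In T/NK cells by the rule the levels were 76.1, 96.2 and 105 CPM, but T/NK cells alone held 1, 3 and 1 UMIs.

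*Csf2ra*, the alpha chain that binds GM-CSF, was, of the members with a mean of at least 5 CPM, the one most above Vehicle in Palo macrophages. The gene lies on the minus strand of chromosome 19 (chr19:61223957-61228429). The 250 bases before its RefSeq start (GRCm38.p6, chr19:61228419-61228668, minus strand) are shown because this promoter holds 2 purine boxes in a row, in capitals, next to the start.
Csf2ra: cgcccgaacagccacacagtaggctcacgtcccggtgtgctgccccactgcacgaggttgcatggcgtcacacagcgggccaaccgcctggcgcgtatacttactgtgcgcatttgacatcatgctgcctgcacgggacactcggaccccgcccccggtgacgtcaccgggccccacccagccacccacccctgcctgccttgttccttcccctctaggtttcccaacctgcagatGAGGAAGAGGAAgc
The 2 boxes begin 14 and 8 bases before the RefSeq start. By GENCODE the gene starts at base 61228429, inside this window, so both boxes lie wholly before the start by RefSeq alone. Of the 6 members whose promoters were searched, 2 held GAGGAA, *Csf2ra* and *Csf3r*. In *Csf3r* it began 86 bases before the RefSeq start. That window (chr4:126024409-126024658) also runs past the GENCODE start of its gene, at base 126024550. Promoters of *Csf1r*, *Csf2rb* and *Csf3* were not searched. The *Csf2ra* window also held ACGTG on the reverse strand, 225 bases before the start, and 0 of the 6 members held AGGTCA. A match is a description of letters, not of binding.

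In macrophages *Csf2ra* stood at 254 CPM (247 to 260) in Matrigel-only, 178 CPM (171 to 184) in Vehicle and 365 CPM (358 to 372) in Palo. Palo was 2.06-fold above Vehicle, a log2 ratio of 1.04 (0.98 to 1.10), and 1.44-fold above Matrigel-only, a log2 ratio of 0.53 (0.48 to 0.57). Vehicle was below Matrigel-only, with a log2 ratio of -0.51 (-0.58 to -0.45). After thinning, 13.5%, 9.64% and 18.5% of macrophages had a UMI, and Palo exceeded Vehicle by 8.84 percentage points (7.43 to 10.2). Palo was the highest and Vehicle the lowest library in all 4 macrophage groups. In the *Mmp12*/*Itgax* cells the levels were 620, 401 and 699 CPM. In the *Ms4a7*/*Stab1* cells they were 124, 108 and 168 CPM, and in the *Hal*/*Retnla* cells 215, 175 and 319 CPM. The *Mmp12*/*Itgax* cells exceeded the *Ms4a7*/*Stab1* cells 5.00-fold, 3.72-fold and 4.15-fold, the reverse of *Csf1r*. The *Mmp12*/*Itgax* cells made up 8.38%, 5.68% and 13.5% of all cells, and with the macrophage groups weighted alike in each library, also chosen after the data were seen, the log2 ratio of Palo over Vehicle was 0.85.

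Stromal cells had *Csf2ra* at 17.1, 13.2 and 18.6 CPM. Per 1000 UMIs of the same 4 macrophage genes this was 22.7, 58.8 and 28.3, against 13.3, 12.4 and 17.0 in macrophages, so the stromal UMIs exceeded the macrophage ratio in every library. The macrophage ratio is over all groups, between which *Csf2ra* differed as given above. The part of doublets or of RNA from any macrophage group in the stromal level was not tested. T/NK cells alone held 0, 1 and 0 UMIs.

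**Figure D4:**
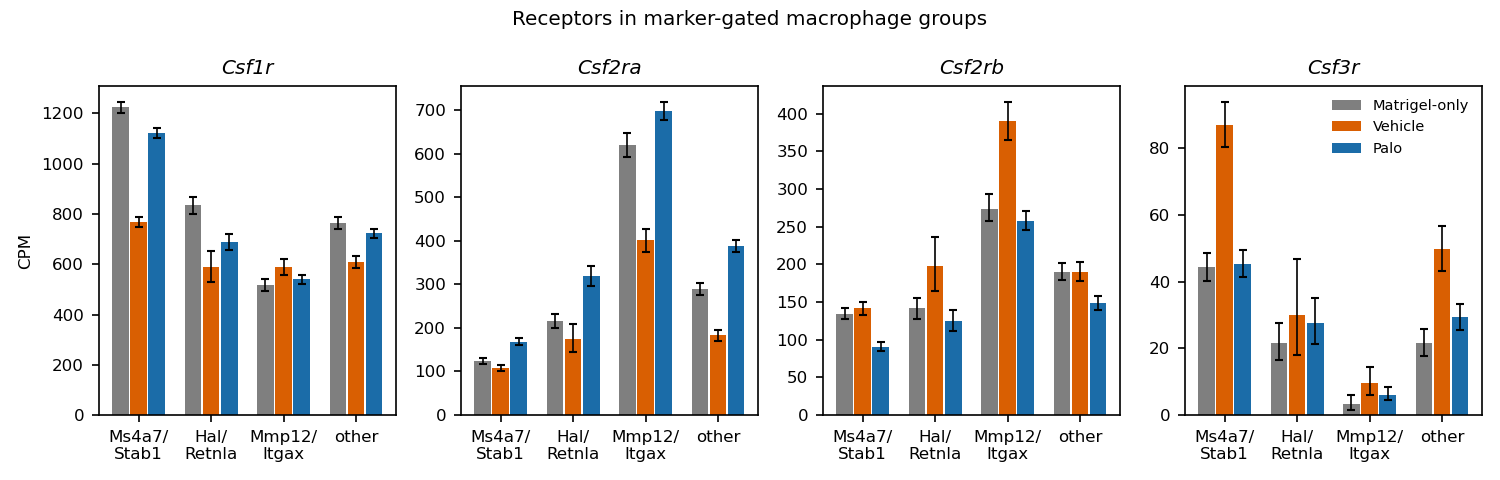
*Csf1r*, *Csf2ra*, *Csf2rb* and *Csf3r* in 4 groups of macrophages in the 3 libraries, in CPM, with exact Poisson 95% intervals. *Csf1r* and *Csf3r* stand highest in the *Ms4a7*/*Stab1* cells, and *Csf2ra* and *Csf2rb* in the *Mmp12*/*Itgax* cells.

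*Csf2rb*, the common beta chain of the GM-CSF, interleukin 3 and interleukin 5 receptors, had another order. It lies on the plus strand of chromosome 15 (chr15:78325752-78353847). Its macrophage level was 170 CPM (165 to 175) in Matrigel-only, 203 CPM (196 to 210) in Vehicle and 149 CPM (144 to 153) in Palo. Vehicle was the highest library, with log2 ratios of 0.26 (0.19 to 0.33) over Matrigel-only and -0.45 (-0.52 to -0.38) for Palo over Vehicle. By CPM over the whole macrophage class, the alpha and beta chains of the GM-CSF receptor were therefore ordered oppositely across the libraries. For Palo over Matrigel-only, however, the *Csf2rb* ratio of -0.19 (-0.26 to -0.13) lay near the median of all genes, -0.15. That step of the order was not recomputed with other scaling. *Csf2rb* was lower in Palo than in Vehicle in each macrophage group, but the rest of the order was less clear. Vehicle over Matrigel-only held 0 in the *Ms4a7*/*Stab1* cells (-0.04 to 0.19) and in macrophages of no marked group (-0.14 to 0.13). Palo over Matrigel-only held 0 in the *Mmp12*/*Itgax* (-0.20 to 0.03) and *Hal*/*Retnla* cells (-0.40 to 0.03). In the *Mmp12*/*Itgax* cells *Csf2rb* stood at 274, 390 and 258 CPM, and in the *Ms4a7*/*Stab1* cells at 134, 142 and 90.9 CPM. Vehicle basophil-like cells held 318 UMIs at 1712 CPM, migratory dendritic-like cells stood at 860 CPM and plasmacytoid-like cells at 493 CPM. The Vehicle T/NK cells had 92.7 CPM on 107 UMIs, of which 78 were in 21 basophil-like cells. T/NK cells alone had 132 CPM in Vehicle, and 6.76 CPM on 3 UMIs once cells with other markers were left out.

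*Csf2rb2*, the neighbouring paralog that serves interleukin 3 alone, lies on the minus strand of the same chromosome (chr15:78282507-78305721). Its macrophage levels were 64.2, 71.6 and 56.3 CPM, the same order as *Csf2rb*. The transcripts were 94.4% identical over 4488 aligned bases, and 8.05% of 91-base windows were shared exactly, so part of the reads could fall on either gene. Within the last 500 bases, where 3′ libraries place most reads, 0 windows were shared.

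*Csf3r*, the receptor of G-CSF, was highest in Vehicle macrophages. The gene lies on the plus strand of chromosome 4 (chr4:126024550-126044440). Its macrophage level was 28.5 CPM (26.3 to 30.9) in Matrigel-only, 63.6 CPM (59.6 to 67.7) in Vehicle and 29.7 CPM (27.7 to 31.8) in Palo. Vehicle was 2.23-fold above Matrigel-only, a log2 ratio of 1.16 (1.01 to 1.30), and Palo over Vehicle had a log2 ratio of -1.10 (-1.23 to -0.96). Palo and Matrigel-only were not separated, at 0.06 (-0.09 to 0.21). After thinning, 2.18%, 4.79% and 2.48% of macrophages had a UMI. In the *Ms4a7*/*Stab1* cells the levels were 44.3, 86.9 and 45.3 CPM, and in the *Mmp12*/*Itgax* cells 3.29, 9.56 and 6.11 CPM. The log2 intervals of Vehicle over Matrigel-only and Palo over Vehicle left out 0 in the *Ms4a7*/*Stab1* cells and macrophages of no marked group. In the *Mmp12*/*Itgax* cells only that of Palo over Vehicle held 0 (-1.43 to 0.17). In the *Hal*/*Retnla* cells, on 61, 19 and 67 UMIs, both held 0 (-0.35 to 1.24 and -0.87 to 0.70). A Vehicle peak was therefore not shown in every macrophage group.

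Neutrophil markers were also highest in Vehicle macrophages. All 6 genes of that list were detected in the macrophage class of each library, none in 10% of its cells, and they summed to 51.0, 151 and 13.2 CPM, highest in Vehicle. The 61 neutrophil-like Vehicle cells had *Csf3r* at 4282 CPM and held 191 UMIs, 15.7% of the gene's Vehicle UMIs, but 20 of these cells, with 66 UMIs, were in the macrophage class. With those 20, the other marked cells and the T/NK cells of the class left out, the macrophage levels were 29.2, 61.4 and 30.1 CPM.

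*Flt3*, the receptor of FLT3L, marked dendritic-like cells. The gene is on the minus strand of chromosome 5 (chr5:147330741-147400489). The macrophage class stood at 8.49, 8.51 and 4.58 CPM, and at 1.59, 3.09 and 1.07 CPM with the marked and T/NK cells left out. In cDC1-like cells, named from *Xcr1*, *Clec9a*, *Itgae* and *Tlr3*, the level was 283 CPM in 128 Matrigel-only cells, 302 CPM in 34 Vehicle cells and 220 CPM in 83 Palo cells. Within these cells Vehicle over Matrigel-only was 0.09 (-0.31 to 0.49) and Palo over Vehicle -0.46 (-0.89 to -0.03). Migratory dendritic-like cells of Vehicle had 274 CPM, and plasmacytoid-like cells 202 CPM in Matrigel-only and 197 CPM in Vehicle. Stromal cells held 5, 1 and 1 UMIs. The cDC1-like cells held 157, 82 and 108 UMIs, macrophages of no marked group 30, 30 and 23, and cells of no class and no marked type 10, 17 and 8.

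The members were then set beside all genes. A gene was counted as different when its log2 of CPM with 1 added differed at least 2-fold between libraries, among genes with a mean of at least 5 CPM over the libraries. In stromal cells 5 of the 9 members passed that level, and 4 did not. For Vehicle over Matrigel-only 0 of these were higher, where 4.18% of 10311 genes were, and 3 were lower (*Csf1*, *Csf1r* and *Csf2rb*), where 9.24% were. For Palo over Vehicle, *Csf1* was the 1 member higher (6.59% of genes) and 0 were lower (4.26%). For Palo over Matrigel-only 0 were higher (0.592%) and 0 lower (1.71%). The median log2 ratios of the 5 members were -1.15, 0.67 and -0.44, and those of all genes -0.04, 0.01 and -0.03. *Csf2rb*, at 7.43, 2.76 and 4.99 CPM, passed the mean of 5 CPM through its Matrigel-only level, so its place in the count was set by the filter and shows nothing more. *Csf1r* and *Csf2rb* are macrophage genes, and summed macrophage markers in stromal cells were 993, 372 and 835 CPM, in the same order. Scrublet marked 171, 63 and 69 of the stromal cells as doublets, which were kept. The part of macrophage RNA or of doublets in the count was not tested.

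In macrophages 7 of the 9 members passed, all but *Csf2* and *Csf3*. For Vehicle over Matrigel-only 2 were higher (*Csf1* and *Csf3r*), against 3.70% of 9609 genes, and 0 were lower, against 1.89%. For Palo over Vehicle *Csf2ra* was higher, against 1.43% of genes, and *Csf1* and *Csf3r* were lower, against 4.62%. With TMM factors, which scale the Palo macrophages differently, *Csf3r* had a log2 ratio of -0.88 for Palo over Vehicle, and *Csf2ra* was the 1 member past 2-fold. *Csf1*, at 3.65, 8.84 and 3.60 CPM, passed the mean of 5 CPM through its Vehicle level, so the filter set its place in both counts, and without it 1 member was higher in Vehicle than in Matrigel-only and 1 was lower in Palo than in Vehicle. For Palo over Matrigel-only 0 were higher, against 0.697%, and 0 lower, against 1.16%. The median log2 ratios were 0.08, -0.45 and -0.17 over the members and 0.01, -0.17 and -0.15 over all genes.

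**Figure D5:**
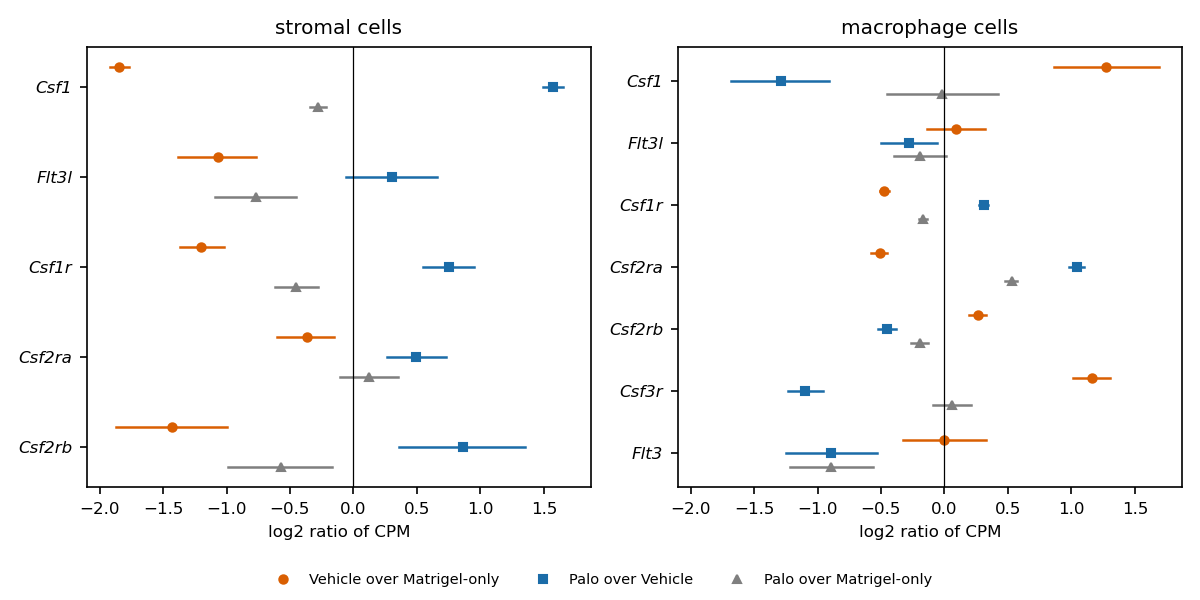
Log2 ratios of CPM between libraries for the 5 members in stromal cells and the 7 in macrophages that passed that level, with conditional binomial 95% intervals. *Csf1* lies at -1.85 in stromal cells and 1.27 in macrophages for Vehicle over Matrigel-only, and *Csf2ra* at 1.04 in macrophages for Palo over Vehicle.

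Genes of the same pathways were taken as a list of 27, which holds other ligands and receptors, JAK and STAT signalling, its inhibitors and myeloid transcription factors. In stromal cells 22 were measured, of which 0 were higher and 8 lower in Vehicle than in Matrigel-only (4.18% and 9.24% of all genes), and 2 higher and 0 lower in Palo than in Vehicle (6.59% and 4.26%). The lowest for Vehicle over Matrigel-only, on the log2 scale with 1 CPM added, were *Il34* at -2.87 and *Pim1*, a kinase induced by STAT signalling, at -1.40. Among the 8 were also *Spi1*, *Irf8*, *Tyrobp* and *Inpp5d*, at 12.8, 12.8, 72.4 and 7.73 CPM in Matrigel-only stromal cells. Macrophages of that library had them at 342, 234, 1826 and 181 CPM. *Tyrobp* was also 1 of the 2 genes higher in Palo. Summed macrophage markers in stromal cells, given above, had the same order of libraries, and their part in these counts was not tested. In macrophages 22 were measured, of which 4 were higher and 1 lower in Vehicle than in Matrigel-only (3.70% and 1.89% of all genes), and 0 higher and 4 lower in Palo than in Vehicle (1.43% and 4.62%). *Cish*, a feedback inhibitor induced by STAT5, stood at 7.76, 50.7 and 2.73 CPM, and *Socs1*, an inhibitor of JAK kinases, at 16.0, 73.0 and 12.3 CPM. Both were highest in Vehicle, with ratios of 2.56 and 2.12 over Matrigel-only and of -3.79 and -2.48 for Palo over Vehicle. *Socs3*, an inhibitor of STAT3 signalling, had another order, with 159, 218 and 267 CPM.

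A second list of 20 held cytokines and signalling genes known to induce colony-stimulating factors or to be induced with them. In stromal cells 14 were measured, of which 1 was higher and 6 lower in Vehicle than in Matrigel-only, and 4 higher and 1 lower in Palo than in Vehicle, beside the same shares of all genes as for the pathway list. The higher gene was *Ptgs2*, which encodes the inducible cyclooxygenase, at 36.8, 203 and 27.3 CPM. *Il1rl1* was lowest in Vehicle, at 39.6, 3.52 and 65.9 CPM. In macrophages 13 were measured, with 2 higher and 3 lower in Vehicle than in Matrigel-only and 3 higher and 3 lower in Palo than in Vehicle, again beside those shares. *Il1b*, which encodes interleukin 1 beta, stood at 57.4, 210 and 66.7 CPM, and *Cxcl2*, a neutrophil chemokine, at 232, 54.5 and 322 CPM. *Il1b* was highest and *Cxcl2* lowest in Vehicle, and both were higher in Palo than in Matrigel-only. Between Palo and Matrigel-only, the pathway list had 0 higher and 0 lower genes in stromal cells and 0 higher and 1 lower in macrophages, and the inducer list 0 and 0, then 1 and 0, where 0.592% and 1.71% of all genes in stromal cells and 0.697% and 1.16% in macrophages were higher and lower. Of both lists as of the members, genes low in 1 library can pass the mean of 5 CPM through another.

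Macrophages often carried several receptors. *Csf1r* and *Csf2ra* were found together in 36.3%, 32.0% and 54.9% of macrophages, without thinning. *Csf2ra* and *Csf2rb*, the chains of the GM-CSF receptor, were found together in 20.5%, 20.8% and 29.2%, and *Csf1r* with *Csf3r* in 8.11%, 16.7% and 11.7%. These shares rise with depth, and Palo macrophages were the deepest, at a median of 4219 UMIs against 3000 and 3498.

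The genes most like each member were found by Pearson's r of log2 levels over 35 points, each a group of at least 20 cells in 1 library, among 10742 genes. The points share 3 libraries and their depth, and r is a description. *Csf1* was most like *Rhobtb3* (0.809), *Clip1* (0.808) and *Rnf144a* (0.803). *Csf1r* was most like *Adgre1* (0.937), which encodes the macrophage antigen F4/80, *Rab5c* (0.930) and *Fcgr3* (0.921), an Fc receptor. *Csf2ra* was most like *Atf3* (0.881), *Cd300c2* (0.878) and *Gpx1* (0.876), and *Csf2rb* like *Ncf1* (0.936), a subunit of the phagocyte oxidase, *Prkcd* (0.927) and *Btk* (0.896). *Csf3r* was most like *Slfn4* (0.854), *Clec4d* (0.830) and *Lst1* (0.815). *Flt3* was most like *Btla* (0.911), *Tbc1d8* (0.857) and *H2-Oa* (0.834), and *Flt3l* like *Mgat5* (0.893), *Rbl2* (0.847) and *Smc5* (0.842). *Csf2*, with 143 UMIs, was most like *Acsbg1* (0.890), *Hlf* (0.857) and *Ly6g5b* (0.823), and *Csf3* had too few UMIs.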

How the data were processed

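Droplet RNA sequencing of 3 libraries, 1 per condition, was analysed. Per the labels and methods, the authors used mm10, Cell Ranger 3.0.2 and Seurat 3, and they deposited raw UMI counts per barcode and gene, without normalization. The submitters' clusters were not used here. Cells with 200 to 6000 genes and at most 5% mitochondrial UMIs were kept. The members and all lists were chosen with earlier results of these data known.

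Levels were summed UMIs of the class scaled to CPM, with exact Poisson intervals. Shares were thinned to 700 UMIs by the hypergeometric formula, leaving shallower cells out, with exact binomial intervals, and their differences carry Newcombe intervals. Ratios carry conditional binomial intervals. With 1 library per condition no test across genes was run: a gene counted as different at 2-fold on log2(CPM + 1), which understates low genes, among genes with a mean of at least 5 CPM. Neutrophil-like cells had at least 1% of UMIs from *S100a8* and *S100a9*. Basophil-like and migratory dendritic-like cells had at least 3 detected markers of their lists. The cDC1-like, plasmacytoid-like and B-like cells and the macrophage groups had at least 2, and a macrophage group needed more of its own markers than of each other group's. T cells had *Cd3e* and no *C1qa* below the stromal limit, and the *Pi16* stroma had *Pi16* and neither *Acan* nor *Col2a1*. Doublets were kept, and Scrublet scores at 0.8% per 1000 cells were an alternative. Named were the 9 members, the 2 highest and 2 lowest genes of the pathway and inducer lists per class and pair (the text gives some), and the 3 genes most like each member with at least 100 UMIs. The split of stroma by cartilage genes and of unclassed cells by *Gata3* or *Il1rl1*, the T/NK cells alone, the marked types left out, joint detection, ratios to class genes and the motif search were chosen after values were seen. Alternatives covered the mitochondrial limit, doublets, the stromal limit, stricter macrophages, TMM scaling, means over cells, the pseudocount, the filter and the thinning depth. The statistics were tested on simulated data. Positions are GENCODE vM21 on mm10, and promoters RefSeq on GRCm38.p6. TMM factors came from edgeR 4.0.16, doublet scores from scanpy 1.11.5, alignments from biopython 1.88 and the rest from pandas 2.3.3, numpy 2.4.6, scipy 1.17.1 and matplotlib 3.10.9 under Python 3.11.15.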

Additional observations from a re-analysis of the deposited data

Results flagged for a closer look

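The ratios of 2 members had opposite signs in stromal cells and macrophages with intervals that left out 0 in both classes. With 1 library per condition, the difference between the classes was not tested. In macrophages *Csf1* stood at 3.65, 8.84 and 3.60 CPM and passed the mean of 5 CPM through its Vehicle level. In stromal cells *Csf2rb* stood at 7.43, 2.76 and 4.99 CPM and passed through its Matrigel-only level. Both flags thus rest on a class where the gene was low and show nothing more. For *Csf1*, the log2 ratio of Vehicle over Matrigel-only was -1.85 in stromal cells and 1.27 in macrophages. That of Palo over Vehicle was 1.57 in stromal cells and -1.29 in macrophages. Within macrophages, Vehicle over Matrigel-only held 0 in the *Ms4a7*/*Stab1* (-0.16 to 1.16), *Hal*/*Retnla* (-2.08 to 2.38) and *Mmp12*/*Itgax* cells (-3.27 to 1.45). It was 1.77 (1.07 to 2.52) in macrophages of no marked group. Palo over Vehicle held 0 in the *Hal*/*Retnla* and *Mmp12*/*Itgax* cells and was negative in the others. For *Csf2rb*, Vehicle over Matrigel-only was -1.43 in stromal cells and 0.26 in macrophages, and Palo over Vehicle was 0.86 and -0.45. The stromal *Csf2rb* ratios rest on 149, 65 and 79 UMIs, and stromal cells held 9.88, 12.3 and 7.60 *Csf2rb* UMIs per 1000 macrophage gene UMIs against 8.92, 14.1 and 6.94 in macrophages.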

How the results depend on the processing

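Of 104 recomputed log2 ratios, 83 moved by less than their counting interval and 21 by more. Signs turned only for *Flt3l* in T/NK cells, where the intervals of both reported ratios held 0. Vehicle over Matrigel-only went from 0.28 to -0.49 and Palo over Vehicle from -0.36 to 0.45 in T/NK cells alone. As means over cells these ratios became -0.00 and 0.21. Stromal *Csf1* had ratios of -1.76 and 1.43 (Vehicle over Matrigel-only, then Palo over Vehicle) as means over cells, and of -1.10 and 0.86 with marked groups at equal shares (stroma with *Acan* and *Col2a1* left out), an alternative chosen after seeing the data. Macrophage *Csf1r* for Vehicle over Matrigel-only became -0.55 with a stromal limit of 2% and -0.52 with TMM factors, and for Palo over Vehicle 0.38 with the 2% limit, 0.53 with TMM factors, 0.36 as a mean over cells and 0.36 at equal shares. Macrophage *Csf2ra*, Palo over Vehicle, became 1.11 with the 2% limit, 1.26 with TMM factors and 0.85 at equal shares. Macrophage *Csf3r* became 1.54 for Vehicle over Matrigel-only as a mean over cells, and for Palo over Vehicle -0.88 with TMM factors, -1.31 as a mean over cells and -0.84 at equal shares. Macrophage *Csf2rb* became 0.18 for Vehicle over Matrigel-only with the 2% limit. For Palo over Vehicle it became -0.23 with TMM factors, -0.37 with the 2% limit and -0.55 at equal shares.

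Genes past 2-fold in stromal cells numbered 782 for Vehicle over Matrigel-only and 625 for Palo over Vehicle among genes of at least 20 CPM. In macrophages they numbered 840 and 260 for the first pair at 1 and 20 CPM, and 952 and 272 for the second. These counts change with how many genes are tested. Members past it in macrophages became 1 in place of 2 for Vehicle over Matrigel-only at 20 CPM or with 5 CPM added, and 1 in place of 3 for Palo over Vehicle with 5 CPM added or TMM factors. Share differences moved in 14 of 16 cases, as less thinning shows more cells. Of 12 recomputed shares of *Csf1* or *Csf1r* UMIs held by a class, 6 moved. The stromal share of Vehicle *Csf1* UMIs fell from 86.8% to 78.7% with the 2% limit. No paired analysis was possible because each condition had 1 library, and leaving out a replicate was not possible for the same reason. *Csf2* and *Csf3* were limited by depth.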
